A study of Homo sapiens with 12 samples.

Results

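PHF19 and MTF2 are both Polycomb-like proteins, accessory subunits of the Polycomb repressive complex 2 (PRC2). PRC2 methylates lysine 27 of histone H3, a mark of silent developmental genes, and the Polycomb-like subunits help to bring it to chromatin, MTF2 chiefly at unmethylated CpG-rich DNA. The regions described here are the promoter peaks of PHF19 at which neither deposited MTF2 peak list holds any peak, and they number 849 of the 5621 PHF19 peaks. Of all PHF19 peaks, at promoters or not, 39.0% overlapped neither MTF2 list, a share that the same calls fix and from which nothing is read. They were selected on the peak calls themselves: a PHF19 peak from cells with the empty vector (shCT) was kept if it had 0 bp in common with every MTF2 peak of the lists labelled sh2 and shCT, and if at least part of it lay within 2.5 kb of an annotated transcript start. The count of such peaks is therefore a description and not a finding, and these peaks are called MTF2-free below in the sense that no MTF2 peak was listed over them.

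All samples were K562 cells, a human chronic myeloid leukemia line of erythroid character. The cells carried sh2 or sh1, short hairpin RNAs against the long isoform of PHF19, or the empty shRNA vector as shCT, all introduced by lentivirus with puromycin selection. ChIP-seq of PHF19, MTF2 or control IgG was done on 1 library for each condition, and RNA-seq on 2 libraries for each of sh1, sh2 and shCT. The 3 peak lists used were those of PHF19 in shCT cells, with 5621 peaks, MTF2 labelled sh2, with 18287 peaks, and MTF2 labelled shCT, with 12502 peaks. With 1 library behind each list there is no replicate error, so the 95% intervals given with the shares are exact binomial intervals that cover counting error only. The peak lists give no read numbers and their depth is unknown. In the heading of the PHF19 list a further hairpin, sh4, is named beside the control sample, and the heading of the list labelled MTF2 sh2 also calls its hairpin sh4. What served as control in the PHF19 peak calling is therefore not clear, and that the MTF2 sh2 list is from sh2 cells rests on its label alone. The RNA-seq table showed the erythroid genes that mark K562, with authors' mean normalized counts of 171752 for the fetal globin HBG2 and 7043 for the transcription factor GATA1. Markers of macrophages (CD14 at 2.04 and CSF1R at 2.76) and of hepatocytes (ALB at 6.72) were low. Of the T cell markers, CD3D (962) was not low, whereas CD3E (13.6) and CD2 (3.35) were far lower. Among epithelial markers, EPCAM (3071) and KRT8 (11863) were not low, but CDH1 (2.16) was.

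CpG content ranged widely among the strongest MTF2-free peaks. Over the central 300 bp of each peak, BACH2, a transcription repressor of B cells, and TIGD4 had the highest and the lowest CpG observed over expected ratio among the 50 strongest. The BACH2 centre held 35 CG dinucleotides, a ratio of 1.03, and the TIGD4 centre held 0. The strongest promoter PHF19 peak that overlapped MTF2, at the connexin gene GJC1, held 43 CG dinucleotides at its centre, a ratio of 1.01. The BACH2 and TIGD4 peaks were picked as the ends of this range. Coordinates are given on GRCh37 (hg19) throughout.

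Of the 5621 PHF19 peaks, 2623 lay at promoters, and 849 of those were MTF2-free, a share of 32.4% (95% interval 30.6 to 34.2%). Over the 2998 PHF19 peaks away from promoters it was 44.9% (1346 peaks). Of the other promoter peaks, 1399 overlapped peaks of both MTF2 lists, 299 overlapped the sh2 list alone and 76 the shCT list alone. By the shCT list alone, 1148 promoter peaks (43.8%) would have been without MTF2. The 299 peaks that overlapped MTF2 only in the sh2 list had a median PHF19 score of 70.98, above the 64.81 of the MTF2-free peaks, and the peaks on both lists had 99.94.

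MTF2-free peaks were weaker and narrower than the promoter peaks with MTF2. Their MACS scores (the peak caller's measure of confidence) ran from 50.04 to 339.86, with a median of 64.81 (quartiles 55.56 and 81.51), whereas the 1774 promoter peaks with MTF2 had a median of 92.285 and reached 1414.25. The scores came from the same ChIP-seq list as the rule and are given without a test. Above the median score of the whole PHF19 list, 72.28, lay 308 of the MTF2-free peaks (36.3%, interval 33.0 to 39.6%) and 1180 of the peaks with MTF2 (66.5%, 64.3 to 68.7%). No MTF2-free peak was among the 100 strongest PHF19 peaks, against 79 promoter peaks with MTF2. By deciles of the PHF19 list, the share of promoter peaks that were MTF2-free was 4.10% in the strongest (16 of 390, interval 2.36 to 6.58%), 38.4% in the fifth and 54.8% in the weakest (48.0 to 61.6%). Median width was 1292 bp for MTF2-free peaks, 2109 bp for promoter peaks with MTF2 and 1203.5 bp for the 1346 distal peaks without MTF2. Together the MTF2-free promoter peaks covered 1.31 Mb, and the promoter peaks with MTF2 covered 4.64 Mb.

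**Figure D1:**
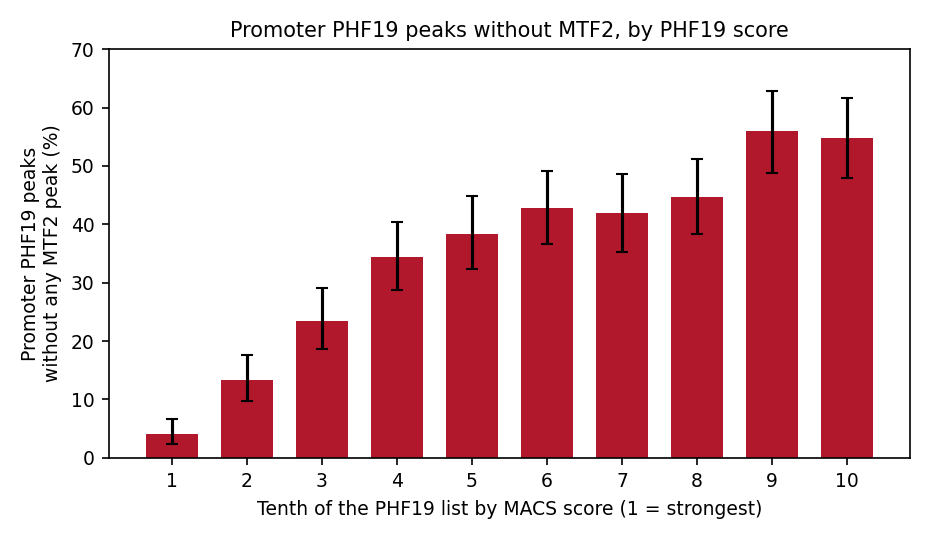
Share of promoter PHF19 peaks without any MTF2 peak (%, vertical axis) in each decile of the PHF19 list ordered by MACS score, with 1 the strongest; bars are shares and lines are 95% exact binomial intervals, which cover counting error only. The share is 4.10% in the strongest decile and 54.8% in the weakest.

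The 15 strongest MTF2-free peaks were mixed in their position and in the expression of the nearest gene. The strongest had a score of 339.86 and was the 123rd peak of the whole list. It lay in an intron of SKAP1, a T-cell adaptor gene, 385 bp from the start of the small nuclear RNA pseudogene RNU6-1152P. The next peak (score 276.32) was in an intron of GHRHR, the receptor gene for growth hormone-releasing hormone, which was listed at 0 in the RNA-seq table. The peak at PRKD3, a protein kinase of the PKD family (chr2:37552025-37553266, score 258.35), included an annotated transcript start, but not the PRKD3 start it was named by. PRKD3 had a mean normalized count of 2807, or 273 per kb of exon. This count is the authors' mean over all 6 libraries, 4 of them depleted of PHF19, so it gives a level and not a response to depletion.

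The next peaks included tubulin genes with high read counts. TUBA1A, an alpha-tubulin gene (chr12:49581775-49584723, score 252.74), had a mean of 18736, or 4901 per kb, and TUBA1C, which is annotated with a start within the same 2.5 kb, had 37571, or 8435 per kb. These tubulin genes are near-identical in their coding parts, so the division of reads between them is uncertain. UBN2, a histone chaperone subunit (chr7:138915099-138918730, score 247.74), had 1816, or 109 per kb. A peak at the long non-coding RNA ENSG00000291234 (chr1:202829773-202833237, score 252.51) had no RNA-seq value.

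BACH2 had a pair of neighbouring MTF2-free peaks with their centres in introns, chr6:91003615-91006146 with a score of 221.00 and chr6:91006754-91010333 with a score of 132.84. The first had a CpG ratio of 1.03 at its centre and the second 0.08, and BACH2 had a mean of 224, or 20.6 per kb. PIK3C2B, a class II phosphoinositide kinase (chr1:204461393-204465388, score 208.78), had 258, or 25.4 per kb. GPSM2, a regulator of spindle orientation (chr1:109419206-109421229, score 193.13), had 1446, or 73.9 per kb. BACH2 and PIK3C2B were thus below the per-kb median of all measured protein-coding genes, 36.9, and GPSM2 was above it.

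Next in score were LINC01551 at 192.62, ENSG00000285897 at 187.58 (RNF43 also had a start within reach), DDX52, an RNA helicase, at 184.36, CLPSL1 at 183.88, MUC20, a mucin, at 182.97, and IRF2BP2, a transcription corepressor, at 180.89. DDX52 had a further MTF2-free peak with a score of 165.73, and its mean was 3776, or 396 per kb. IRF2BP2 had 2720, or 506 per kb. CLPSL1 was listed at 0 and MUC20 at 4.66. Among these 15, levels therefore ranged from genes listed at 0 to 4901 per kb at TUBA1A itself.

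The 5 widest MTF2-free peaks were those at TRERF1, a transcription factor gene (11287 bp), at the pseudogenes ENSG00000263781 (10847 bp), SEC22B2P (7951 bp), ENSG00000234726 (6965 bp) and ENSG00000225544 (6480 bp). Their scores were between 62.74 and 96.92, so width and score did not go together at this end. In 210 cases (24.7%, interval 21.9 to 27.8%) another PHF19 peak lay within 5 kb of an MTF2-free peak, against 694 of the promoter peaks with MTF2 (39.1%, 36.8 to 41.4%). In 80 cases (9.42%) the neighbour within 5 kb was a PHF19 peak that overlapped MTF2. The 849 peaks carried 785 different names, and 55 names had more than 1 peak. CLUL1 and ZCWPW1 had 4 each, with scores from 55.25 to 102.86 and from 56.25 to 82.97. Neighbouring peaks of 1 gene share their locus and are not independent.

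MTF2-free peaks were centred closer to the annotated start than promoter peaks with MTF2. The centre was within 500 bp of the named start in 411 MTF2-free peaks (48.4%, interval 45.0 to 51.8%) and in 670 peaks with MTF2 (37.8%, 35.5 to 40.1%), with a median distance of 532 and 737 bp. The peaks with MTF2 were also wider, which lets a centre lie farther from a start that is still within 2.5 kb. The named start was inside 487 MTF2-free peaks (57.4%), 206 lay wholly upstream of it (24.3%) and 156 wholly downstream (18.4%). A protein-coding gene named 619 of them (72.9%), a long non-coding RNA 116 (13.7%) and a processed pseudogene 59 (6.95%, interval 5.33 to 8.87%, against 3.49%, 2.69 to 4.46%, of the peaks with MTF2). Centres were in introns in 346 cases (40.8%, against 52.0% with MTF2), between genes in 252 (29.7%, against 21.8%), in UTRs in 113 (13.3%), in non-coding exons in 89 and in coding exons in 49.

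**Figure D2:**
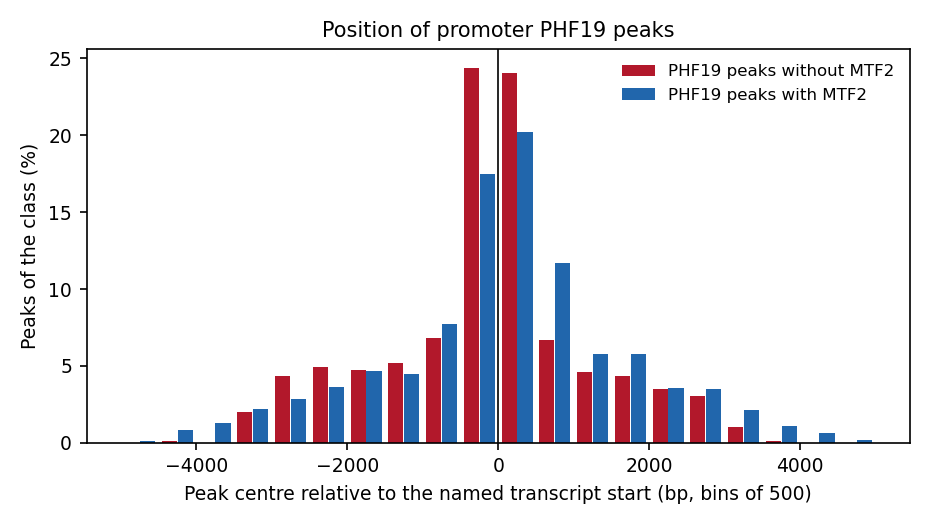
Peak centre relative to the named transcript start (bp, bins of 500, negative upstream) against the percent of promoter PHF19 peaks of each class, for the 849 without MTF2 (red) and the 1774 with MTF2 (blue). Centres within 500 bp of the start make up 48.4% of the red and 37.8% of the blue peaks, and the blue peaks extend farther to both sides.

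The share that was MTF2-free varied between chromosomes. The 3 highest shares were 55.6% on chromosome 18 (25 of 45 promoter peaks, interval 40.0 to 70.4%), 43.6% on chromosome 7 (103 of 236, 37.2 to 50.2%) and 43.2% on chromosome 4 (35 of 81, 32.2 to 54.7%). The 3 lowest were 7.84% on chromosome 20 (4 of 51, 2.18 to 18.9%), 8.89% on chromosome 21 (4 of 45, 2.48 to 21.2%) and 12.1% on chromosome 15 (4 of 33, 3.40 to 28.2%). Chromosome 1 held the most MTF2-free peaks, 140 of its 362 promoter peaks.

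Most MTF2-free peaks were far from any MTF2 peak, and a smaller part lay close to one. The nearest MTF2 peak of either list was at a median of 37270 bp (quartiles 8046 and 167468 bp), or 72102 bp when only MTF2 peaks at or above the median score of their list were counted, which also enlarges the set of MTF2-free peaks. It was within 1 kb for 70 peaks (8.24%, interval 6.48 to 10.3%), within 10 kb for 236 (27.8%) and within 100 kb for 554 (65.3%). By list, the median distance was 47913 bp to the MTF2 list labelled sh2 and 71935 bp to that labelled shCT. The sh2 peak was the nearer one for 634 of the 849 and the shCT peak for 215, but the sh2 list also held more peaks, and 1 library per condition gives no replicate for this difference. For the 1346 distal PHF19 peaks without MTF2, the median distance to either list was 16352 bp. Around the named start itself, a region wider than most of the peaks, 99 of the 849 had an MTF2 peak of either list within 2.5 kb.

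**Figure D3:**
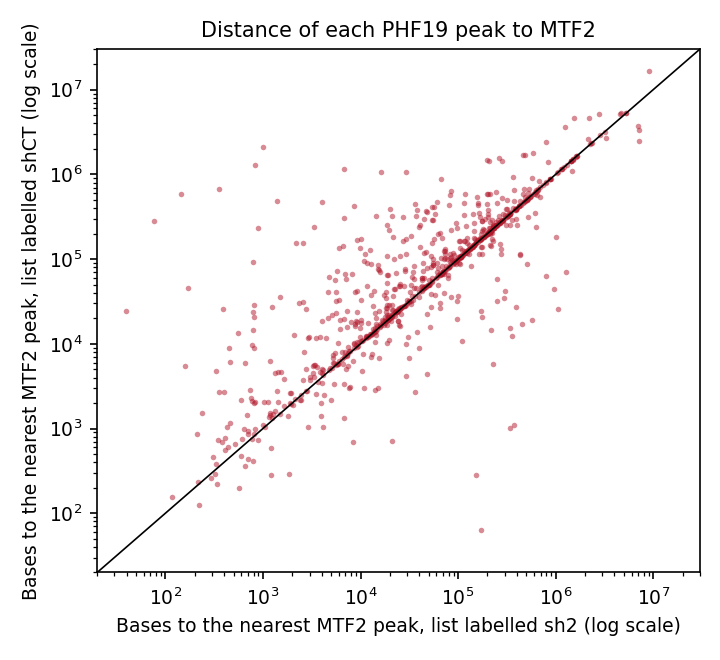
Distance in bases from each of the 849 promoter PHF19 peaks without MTF2 to the nearest MTF2 peak of the list labelled sh2 (horizontal, log scale) and of that labelled shCT (vertical, log scale), 1 point a peak, with the line of equal distances. Most points lie near the line, and of those away from it most are above, where the sh2 peak is the nearer one: it is nearer for 634 peaks, and the shCT peak for 215.

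The edge of the rule passed through peaks that were almost alike. Just inside it, the MTF2-free peaks nearest to an MTF2 peak were those at HLA-DPA3, 39 bp from a peak of the sh2 list, at FHDC1, 63 bp from a peak of the shCT list, at RDXP1 (76 bp, sh2), at ENSG00000236501 (116 bp, sh2) and at TTLL6 (126 bp, shCT). Just outside it, the promoter peaks with the least MTF2 overlap shared 6 bp (PGRMC1), 11 bp (DNAAF1), 23 bp (LINC02086), 38 bp (FBN3) and 42 bp (PRELID3A). For the distance to a transcript start, the last peaks inside were at 2495 bp (ENSG00000231547), 2493 bp (FH, the fumarate hydratase gene) and 2479 bp (LPO). The first distal ones were at 2504, 2506 and 2516 bp.

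The gene expression of the 2 kinds of promoter peak is a measure the rule did not use. Among protein-coding genes with a start within 2.5 kb of an MTF2-free peak, 621 of 634 had an RNA-seq value, and 520 of these had a mean normalized count of at least 10 (83.7%, interval 80.6 to 86.6%). The share was 52.3% at promoter peaks with MTF2 (602 of 1151 genes, 49.4 to 55.2%) and 66.2% over all 19060 measured protein-coding genes. Divided by exon length, the median level was 120 per kb (quartiles 6.30 and 382) at MTF2-free peaks, 2.16 per kb at peaks with MTF2 and 36.9 per kb over all genes. Exon length was merged over all GENCODE transcripts of a gene, while the authors counted reads on RefSeq exons. Per-kb levels and rankings by them are therefore approximate and can be too low for some genes. A mean of 1000 or more was reached by 281 of the 621 genes (45.2%, 41.3 to 49.3%), by 85 of the 1151 (7.38%, 5.94 to 9.05%) and by 32.3% of all genes. Listed at 0 were 21 genes at MTF2-free peaks (3.38%) and 102 at peaks with MTF2 (8.86%), against 13.3% of all measured genes. These are levels without a test, since genes are not replicates and the table used holds 1 mean for each gene.

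**Figure D4:**
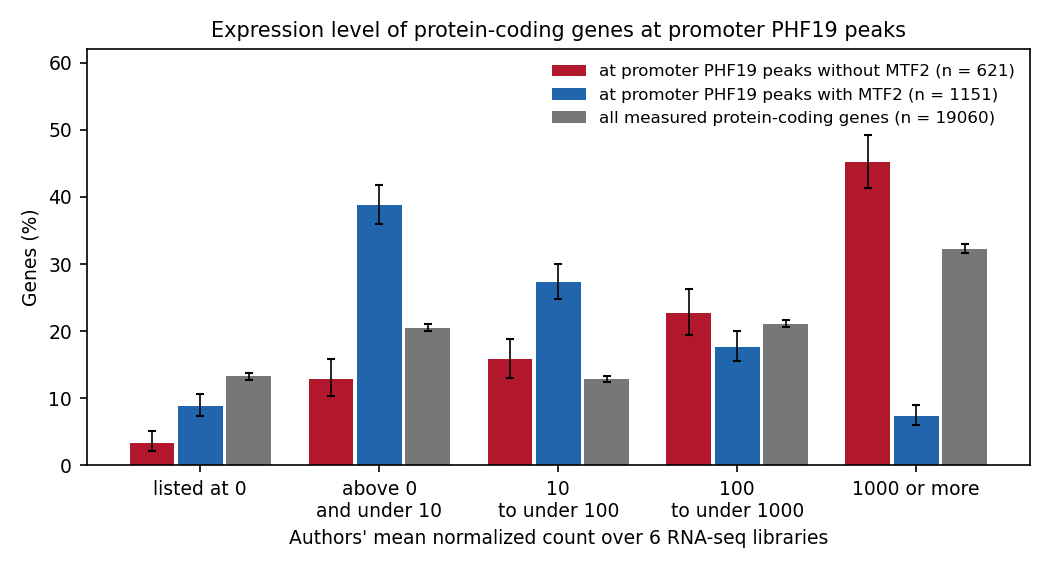
Percent of protein-coding genes (vertical axis) in each range of the authors' mean normalized count over 6 RNA-seq libraries, for 621 genes at promoter PHF19 peaks without MTF2 (red), 1151 genes at promoter PHF19 peaks with MTF2 (blue) and all 19060 measured genes (grey); lines are 95% exact binomial intervals. Of the red genes 45.2% and of the blue genes 7.38% are at 1000 or more, while 12.9% and 38.8% are above 0 and under 10.

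The difference in level between genes at MTF2-free peaks and at peaks with MTF2 was present at strong and at weak PHF19 peaks. Among peaks at or above the list's median score, 83.8% of genes at MTF2-free peaks (interval 78.4 to 88.2%) and 54.5% of genes at peaks with MTF2 (51.1 to 57.9%) had a mean of at least 10. Below the median score the shares were 83.9% (79.9 to 87.3%) and 45.7% (40.8 to 50.7%). With the start inside the peak they were 91.7% (432 genes, of which 424 were measured) and 55.8%, and with the start near but outside the peak 68.8% and 44.3%. Some 76 genes had both kinds of peak, and 56.0% of those measured had a mean of at least 10 (44.1 to 67.5%). The 558 genes with MTF2-free peaks alone were at 87.5% (84.5 to 90.2%). Promoter peaks that overlapped MTF2 only in the sh2 list had genes at 55.6% (104 of 187, 48.2 to 62.9%), those that overlapped it only in the shCT list at 64.0% (32 of 50, 49.2 to 77.1%), and those on both lists had genes at 51.1% (495 of 969, 47.9 to 54.3%). Counted from the genes, 281 of the 6151 genes with a mean of 1000 or more were at an MTF2-free peak (4.57%, interval 4.06 to 5.12%) and 85 at a promoter peak with MTF2 (1.38%, 1.11 to 1.71%). Of the 3912 genes above 0 and under 10, 80 (2.04%) were at an MTF2-free peak and 447 (11.4%) at a peak with MTF2.

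The most abundant genes per kb of exon at MTF2-free peaks were those of chaperones, a ribosomal protein and alpha-tubulins. HSP90AB1, a cytosolic chaperone, had a mean of 183938, or 61724 per kb, and its peak (chr6:44213536-44216288) had a score of 96.50. RPL18, a protein of the large ribosomal subunit, had 35264, or 9143 per kb, beneath a peak that also covered the start region of SPHK2 (score 67.03). CCT5, a subunit of the chaperonin for tubulin and actin, had 38987, or 6915 per kb, with a score of 59.12. TUBA1C and TUBA1A completed the first 5. The lowest measured above 0 were GRIP2, MYPN, RGMB, LPO and TDRD9, all between 0.0137 and 0.0314 per kb, and their peaks had scores of 51.92 to 89.75. The RPL18 and CCT5 peaks had scores within that range, and the HSP90AB1 and tubulin peaks scores above it.

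CpG content of the MTF2-free peaks followed whether they covered a protein-coding start. Over all 849 peaks, the central 300 bp had a median GC content of 49.3%, a median of 6 CG dinucleotides and a CpG observed over expected ratio of 0.41 (quartiles 0.19 and 0.81), against 0.49 at promoter peaks with MTF2 and 0.21 at distal peaks without MTF2. With a protein-coding start inside, the 401 MTF2-free peaks had a median ratio of 0.79, and the 448 others 0.23. At peaks with MTF2 the medians were 0.67 (922 peaks) and 0.36 (852 peaks). Windows of 300 bp on 19737 protein-coding starts had a median of 0.80. They are fewer than the 20149 protein-coding genes of the annotation, while a peak could cover any annotated start of such a gene. The windows also lie on starts and not on peak centres, so they are an unlike set. A centre was counted as CpG-rich at a GC content of at least 50% and a ratio of at least 0.6, a criterion set after the values had been seen. By it, 262 of the 401 were CpG-rich (65.3%, interval 60.5 to 69.99%), against 495 of the 922 with MTF2 (53.7%, 50.4 to 56.9%) and 68.2% of the windows on starts. Of the MTF2-free peaks without such a start, 45 of 448 were (10.0%, 7.42 to 13.2%), against 135 of 852 with MTF2 (15.8%, 13.5 to 18.5%). Over all their peaks, both kinds of promoter peak had about the same share, 36.2% and 35.5%, while the MTF2-free peaks with and without a start lay farther apart. Peaks that covered a protein-coding start had a median width of 1315 bp without MTF2 and 2389 bp with it. The centre of a wider peak can lie farther from that start, and what this does to the CpG shares was not tested.

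**Figure D5:**
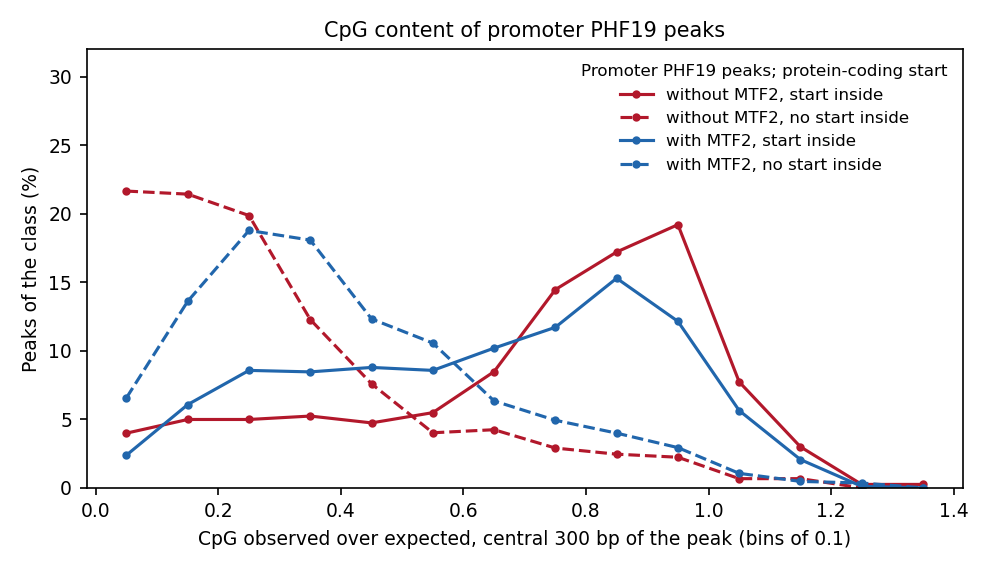
CpG observed over expected ratio of the central 300 bp (horizontal, bins of 0.1) against the percent of peaks of each class, for promoter PHF19 peaks without MTF2 (red) and with MTF2 (blue), with a protein-coding start inside the peak (solid) or not (dashed). The medians are 0.79 and 0.23 for the solid and dashed red lines and 0.67 and 0.36 for the solid and dashed blue lines.

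Expression of the genes went with CpG content. At CpG-rich centres, 96.6% of the genes at MTF2-free peaks had a mean of at least 10 (309 of 320, interval 93.9 to 98.3%), with a median of 216 per kb, against 59.5% (344 of 578, 55.4 to 63.5%) and 3.38 per kb at peaks with MTF2. At the other centres the shares were 70.8% (221 of 312, 65.4 to 75.8%) and 46.2% (308 of 667, 42.3 to 50.05%), with medians of 14.7 and 1.44 per kb. The genes at CpG-rich MTF2-free centres were therefore the most often expressed of the 4 groups. Of the 307 CpG-rich MTF2-free centres, 262 were in peaks that covered a protein-coding start. These shares thus do not separate CpG content from the covering of a start.

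Short motifs were searched on both strands in the central 300 bp. The GATA motif, bound by GATA1 in erythroid cells and written here as AGATAA, was found in 145 of the 849 MTF2-free centres (17.1%, interval 14.6 to 19.8%), 11.7% of promoter centres with MTF2 (10.2 to 13.3%), 22.9% of distal centres without MTF2 and 5.49% of windows on protein-coding starts. Over centres with a protein-coding start in the peak, it was in 11.2% of MTF2-free (8.30 to 14.7%) and 8.13% of MTF2-overlapping ones (6.45 to 10.1%), whose intervals overlap. The ETS motif CCGGAA was in 12.4% of MTF2-free centres (10.2 to 14.8%) and 8.17% of those with MTF2 (6.94 to 9.55%). Over peaks with a protein-coding start inside, the shares were 19.5% (15.7 to 23.7%) and 10.2% (8.32 to 12.3%), against 22.0% of the windows on starts. The SP and KLF motif GGGCGG was in 51.9% and 49.8% of such centres and in 61.6% of the windows on starts. Over all centres, CCAAT was in 31.0% of MTF2-free and 23.8% of MTF2-overlapping ones (32.7% of the windows on starts). TATAAA was in 15.9% and 10.4% (8.07% of the windows on starts). The AP-1 motif TGANTCA was in 6.24% and 5.92% (4.62% of the windows on starts), and the E-box CACGTG in 5.18% and 5.24% (7.69% of the windows on starts). The motifs of NRF1 (GCGCATGC, 0.94%), YY1 (AAGATGGC, 1.65%), CRE (TGACGTCA, 0.59%) and CTCF (0.59%) were rare in MTF2-free centres. They were in 3.65%, 4.34%, 2.37% and 0.37% of the windows on starts. The SP and KLF, ETS, E-box, NRF1 and CRE motifs each contain a CG and so overlap with the CpG count. Median GC content was 41.8% at distal centres without MTF2, 49.3% at MTF2-free centres, 55% at promoter centres with MTF2 and 66% on starts. The shares of the GATA motif and of TATAAA fell in that same order, and those of CCAAT did so except on starts. Whether any motif share differed beyond base composition was not tested, so no enrichment is read from them. A match is a string of letters and not a bound site.

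The GATA string in the strongest MTF2-free peak that had one and covered a protein-coding start is shown in 100 bp of the TUBA1A peak (chr12:49583150-49583249, plus strand of GRCh37), with the motif, here on the reverse strand, in capitals.
TUBA1A: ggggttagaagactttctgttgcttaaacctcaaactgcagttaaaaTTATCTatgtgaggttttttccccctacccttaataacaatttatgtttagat

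Genes of PRC2 and PRC1 themselves were among the genes with MTF2-free peaks. Of 28 Polycomb genes listed, all of them at a mean of at least 10, 4 had an MTF2-free peak and 1 had a promoter PHF19 peak with MTF2. Over all 20149 protein-coding genes of the annotation, 634 had an MTF2-free peak (3.15%) and 1177 a promoter PHF19 peak with MTF2 (5.84%), and each count of listed genes here and below is to be set beside these shares. EZH2, the methyltransferase of PRC2, had a peak over its start (chr7:148579961-148582194, score 78.55) with a CpG ratio of 0.81 and a mean of 5034, or 467 per kb, and the nearest MTF2 peak was 21470 bp away in the sh2 list and 25104 bp away in the shCT list. RBBP4, a histone-binding subunit of PRC2, had a weak peak over its start (score 53.79) at a mean of 13726, or 1449 per kb. RNF2, the ubiquitin ligase of PRC1, had a stronger one (chr1:185013238-185015661, score 121.04) with a CpG ratio of 0.95, and the nearest MTF2 peak was 372025 bp away in the sh2 list and 655305 bp away in the shCT list. CBX2, a PRC1 subunit that reads H3K27 methylation, had the highest score of the 4 (154.27), 264 bp from its start, with MTF2 peaks 1138 bp away in the sh2 list and 2075 bp away in the shCT list. The EZH2, RBBP4 and RNF2 peaks thus covered the start of the gene at a distance from MTF2, and the CBX2 peak lay closest to MTF2 of the 4.

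Lineage and cell cycle lists held between 0 and 2 genes with an MTF2-free peak each, and in lists this short single genes set the share. Of 41 erythroid genes, SOX6, a repressor of embryonic globin, was the only one (score 51.41, mean 343), while 2 had a promoter PHF19 peak with MTF2. None of the 15 megakaryocyte genes had one of either kind, and of the 20 myeloid and progenitor genes none had an MTF2-free peak and 2 had a peak with MTF2. Among 22 cell cycle inhibitors, CCNG2 (score 54.67, mean 884) and CDKN2D, an inhibitor of cyclin D kinases (score 68.73, mean 89.3), had MTF2-free peaks over their starts, and 1 had a peak with MTF2. None of the 29 cell cycle and replication genes and none of the 16 interferon genes had an MTF2-free peak, against 2 and 1 with MTF2. Of 20 immediate early and stress genes, DUSP5, a phosphatase of ERK kinases, had one (score 71.88, mean 77.4), and 3 had a peak with MTF2.

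Of developmental signalling genes and transcription factors, most had no promoter PHF19 peak, and those that had one mostly had one with MTF2. The same held over all protein-coding genes, where 1177 of the 1735 with any promoter PHF19 peak had one with MTF2. No contrast with that share is read from the lists. Of 59 Wnt and Notch genes, 4 had an MTF2-free peak and 16 a peak with MTF2. The 4 were DKK3, a secreted protein of the Dickkopf family, with 2 peaks (scores 86.20 and 58.43), FZD2, a Wnt receptor (61.12), the Notch target HEY1 (94.92) and the ligand WNT9B (55.56). DKK3 and HEY1 had a promoter peak with MTF2 besides, and the nearest MTF2 peak was 279 bp from the HEY1 peak and 418 bp from the WNT9B peak. Of 39 HOX genes, 2 had an MTF2-free peak, HOXB3 (68.40) and HOXB9 (51.30), and 13 had a peak with MTF2. HOXB9 had a mean of 5044, or 1950 per kb, and HOXB3 of 511. Of 129 other developmental factors, 4 had an MTF2-free peak and 29 a peak with MTF2, out of 32 with any promoter PHF19 peak. The 3 strongest MTF2-free peaks of these were at LHX1 (79.72), which also had a peak with MTF2, DLX4 (55.49) and SOX6. These counts follow from where MTF2 peaks lie and carry no test.

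Gene families were picked by symbol. Numbered zinc finger genes had 15 MTF2-free against 11 with MTF2, out of 537, led by ZNF608 (99.01), ZNF318 (97.31) and ZNF395 (87.06). All 3 had means of 401 to 4440. Ribosomal protein genes, cytosolic and mitochondrial, had 4 against 1, out of 160, led by RPL18, MRPL1 (60.63) and MRPS10 (53.96). Clustered histone genes had 3 against 0, out of 69. The histone genes were H4C4 (56.94) and the neighbours H2AC6 and H2BC4, which shared 1 peak (52.37). Solute carriers had 12 against 30, out of 373, led by SLC30A6 (132.23), SLC26A3 (128.59) and SLC9C2 (102.11). Collagens had 2 (COL16A1 at 62.26 and COL9A1 at 60.96) against 6, out of 44, and protocadherins 0 against 2, out of 66. Keratins had 1 (KRT222, at 100.51) against 1, out of 55, and olfactory receptors 1 (OR4D1, at 69.10) against 1, out of 415. No contrast between families is read from these counts.

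None of the genes looked up because the study names them had an MTF2-free promoter peak. ATF3, NODAL, FZD3, CDKN1A, NOTUM, FOXC1, WNT4 and CCND1 had promoter PHF19 peaks, and each such peak overlapped MTF2. The strongest of these was at ATF3 (score 1054.26) and the weakest at CCND1 (50.79). At ATF3 a further, weaker PHF19 peak (366.57) overlapped no MTF2 peak of the sh2 list and 1295 bp of a peak of the shCT list. PDGFRA, PLCG2, KEL, ACP5, RSAD2, IRF7, MYB, SPI1 and MYC had no listed promoter PHF19 peak. That covers only peaks within 2.5 kb of a start. The paper assigns targets from 2.5 kb upstream of a start to the transcript's end, so its target genes can differ. Both Polycomb-like genes were transcribed in these cells, PHF19 at a mean of 7798, or 1183 per kb, and MTF2 at 2797, or 473 per kb.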

How the data were processed

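K562 ChIP-seq (1 library for each condition) and RNA-seq (2 libraries for each of sh1, sh2 and shCT) were used as deposited. The authors mapped ChIP reads uniquely to hg19 plus the fly genome dm3 with Bowtie and called peaks with MACS against a control. The deposited peak lists give start and end and a MACS score (a number that is used only within its own list) for each peak, and no tag counts, so the authors' minimum on tags was not applied. The PHF19 list used here is therefore larger than the set of PHF19 peaks in the paper. Which of the MTF2-free peaks would pass that minimum is unknown. RNA reads were mapped with TopHat and counted on RefSeq exons. Of the authors' deposited DESeq2 table, the mean normalized count over all 6 libraries was used, as a score. Its other columns hold the authors' own comparison (fold change, error, statistic, p-values) and were not used.

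Transcript starts, exons and gene types came from GENCODE 44 on GRCh37, and sequence from GRCh37. Overlap meant at least 1 bp. Genes were those with a protein-coding start within 2.5 kb, per-kb levels used merged exons, and 95% intervals were Clopper-Pearson intervals, which cover counting error only. Python 3.11.15, pandas 2.3.3, scipy 1.17.1 and pysam 0.24.0 were used. Overlaps, distances and motifs were tested on simulated data and against bedtools 2.31.1. No test was run, because peaks and genes are not replicates. Named peaks were the 15 strongest, the 5 widest, those at the 5 highest and 5 lowest genes per kb, those on 9 gene lists, the 3 strongest of each of 10 symbol families, those at the edge of the rule and genes followed in the study. RPS6KB1, a kinase gene that the ribosomal symbol pattern also matches, was left out after its value was seen. Members and lists were chosen with earlier results of these data known. 1 further marker gene and further peak sequences are not reported here.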

Additional observations from a re-analysis of the deposited data

How the results depend on the processing

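The number and share of MTF2-free peaks, their score, CpG ratio, expressed share, width, distance to MTF2 and covered starts were recomputed under alternatives in promoter distance, start set, overlap and score thresholds, with the window varied for the CpG ratio alone and the minimum count for the expressed share alone. Motifs, positions, chromosomes, gene lists and the values of peaks with MTF2 were not recomputed. The number of MTF2-free promoter peaks, 849, ranged from 308 with PHF19 peaks at or above their median score, which keeps fewer peaks by construction, to 1148 with the MTF2 list of shCT cells alone. Their share of promoter peaks, 32.4%, was 43.8% with the shCT list alone, 41.9% with MTF2 peaks at or above their median score, 34.7% where MTF2 had to cover 50% of the peak, 29.7% where MTF2 within 1 kb counted, 34.8% at a promoter distance of 5 kb and 20.7% with PHF19 peaks at or above their median score. Their median PHF19 score was 66.7 with the stronger MTF2 peaks and 90.2 with the stronger PHF19 peaks. The median CpG ratio was 0.617 at 1 kb, 0.308 at 5 kb and 0.609 with protein-coding starts alone, against 0.41 in the report. The share of genes at or above the minimum count was 88.7% at 1 kb, 79.4% at 5 kb, 77.8% with the shCT list alone, 80.0% with the stronger MTF2 peaks, 92.4% at a minimum of 1 and 68.0% at a minimum of 100. Beyond what the construction of an alternative shows, the cause was not tested. The other 27 recomputed values of these results stayed within the 95% interval of the value in the report, or within 1.5 times of it for the count, and of those for width, distance and covered starts 14 fell outside and 10 inside. No paired analysis was possible because the RNA-seq values used are 1 mean over all libraries and the ChIP-seq has 1 library for each condition. Depth is unknown, so an MTF2 signal below the peak caller's threshold cannot be told apart from none.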
